A study of Mus musculus with 24 samples.

Results

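Antiviral interferon-stimulated genes were followed through the reprogramming of neural precursor cells (NPCs) into induced pluripotent stem cells (iPSCs), with and without interferon γ (IFNγ). The 44 genes were listed by symbol, and the rule for membership used no measured value. They were, however, chosen with earlier results of these data known. All 44 were found among the 37315 genes measured, each under 1 Ensembl identifier of GENCODE vM21, and none of them lies on the X chromosome. RNA had been sequenced from 24 libraries, 2 for each of 12 populations of the PaX system, a female hybrid mouse embryonic stem cell (ESC) line of 129S1/SvImJ and CAST/EiJ ancestry. This line carries an X-GFP reporter in Hprt on the musculus X chromosome and a doxycycline-inducible reprogramming cassette, so all populations descend from 1 line. The populations were ESCs in serum and LIF, NPCs made from them, and reprogramming cells of day 2, day 5 and day 7. The last were sorted by the reporter into 3 gates, negative, medium and high for X-GFP. All reprogramming cells had doxycycline, LIF and ascorbic acid and grew on irradiated fibroblast feeders from male embryos, whereas ESCs and NPCs were grown without feeders. Treated cells received IFNγ (10 ng/ml) over days 0 to 5, and control cells had the same medium without it. At day 7 the treated cells had therefore been without the cytokine for 2 days. Day 2 cells were sorted as negative for CFSE, the dye that marked the feeders, and cells of days 5 and 7 were sorted for SSEA1, a surface marker of reprogramming cells. The study calls its replicates independent, but whether these libraries came from separate reprogramming rounds is not stated, so p-values measure the spread between the libraries at hand.

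Interferon-stimulated genes are the effector arm of interferon signaling. Type I interferons act through a complex with STAT2 and IRF9 that binds the interferon-stimulated response element (ISRE), whereas IFNγ acts through the γ-activated sequence (GAS) and through IRF1, which can bind ISRE-like sequences. The products of the genes recognize foreign RNA or DNA (OAS proteins, RIG-I, MDA5, PKR, ZBP1), block viral entry, translation or release (IFITM, IFIT, MX and BST2 proteins), or tag proteins with ISG15 and ADP-ribose. Pluripotent cells are known for a weak interferon response and for constitutive expression of some of these genes, among them IFITM genes.

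The promoters of the genes show which of these elements they hold near the start. RefSeq promoter windows on GRCm38.p6, from 250 bases before to 50 bases after the gene start, were at hand for 35 of the 44 genes, and the 9 others were Dhx58, Mx1, Mx2, Oas2, Parp14, Parp9, Rtp4, Tor3a and Zbp1. An ISRE-like motif, GAAANNGAA on either strand, stood in a window of 19 of the 35 genes (54.3%), against 8.56% of all 32841 windows of the same length and 9.76% of all genes with a window. A GAS-like motif, TTCNNNGAA, which reads the same on both strands, stood in 8 of the 35 (22.9%), against 8.30% of all windows and 9.55% of all genes with a window. Overlapping copies were counted separately, and the 2 motifs may overlap each other by their shared letters. The windows below are those of 2 genes that were lower with IFNγ at day 2 (Ifit1 and Rsad2), 1 whose test did not pass at day 2 (Isg15), and 4 that were higher (Oas3, Ifitm3, Bst2 and Uba7). They were chosen after the values had been seen. Capitals mark either motif, and each sequence reads 5′ to 3′ along the strand of its gene.
Ifit1, chr19:34640639-34640938, plus strand: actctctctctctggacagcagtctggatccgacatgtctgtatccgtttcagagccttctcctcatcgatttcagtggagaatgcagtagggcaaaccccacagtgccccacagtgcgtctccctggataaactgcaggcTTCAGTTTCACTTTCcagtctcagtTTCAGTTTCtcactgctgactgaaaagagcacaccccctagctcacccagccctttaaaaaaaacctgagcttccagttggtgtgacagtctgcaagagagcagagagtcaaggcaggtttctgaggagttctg
Rsad2, chr12:26456403-26456702, minus strand: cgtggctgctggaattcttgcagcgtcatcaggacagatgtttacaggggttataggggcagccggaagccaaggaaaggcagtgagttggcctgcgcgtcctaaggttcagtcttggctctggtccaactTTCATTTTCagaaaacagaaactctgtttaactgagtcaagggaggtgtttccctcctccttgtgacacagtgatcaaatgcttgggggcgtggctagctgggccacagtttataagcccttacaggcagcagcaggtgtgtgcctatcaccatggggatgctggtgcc
Isg15, chr4:156200769-156201068, minus strand: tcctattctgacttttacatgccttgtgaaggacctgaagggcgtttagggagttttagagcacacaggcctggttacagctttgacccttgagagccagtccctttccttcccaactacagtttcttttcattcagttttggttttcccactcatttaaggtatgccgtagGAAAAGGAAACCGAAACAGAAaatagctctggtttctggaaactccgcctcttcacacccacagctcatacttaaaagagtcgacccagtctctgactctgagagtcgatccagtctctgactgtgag
Oas3, chr5:120777610-120777909, minus strand: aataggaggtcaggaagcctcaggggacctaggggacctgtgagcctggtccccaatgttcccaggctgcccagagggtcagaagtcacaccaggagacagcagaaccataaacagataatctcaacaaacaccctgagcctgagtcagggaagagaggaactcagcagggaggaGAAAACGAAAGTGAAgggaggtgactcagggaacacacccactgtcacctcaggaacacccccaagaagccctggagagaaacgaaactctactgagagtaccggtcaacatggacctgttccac
Ifitm3, chr7:141010695-141010994, minus strand: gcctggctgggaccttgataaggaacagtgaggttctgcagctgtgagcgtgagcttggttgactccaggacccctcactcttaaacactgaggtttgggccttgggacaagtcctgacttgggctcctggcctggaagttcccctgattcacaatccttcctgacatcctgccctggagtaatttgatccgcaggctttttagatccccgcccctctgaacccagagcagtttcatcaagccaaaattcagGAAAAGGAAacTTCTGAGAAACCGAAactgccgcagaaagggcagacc
Bst2, chr8:71537423-71537722, minus strand: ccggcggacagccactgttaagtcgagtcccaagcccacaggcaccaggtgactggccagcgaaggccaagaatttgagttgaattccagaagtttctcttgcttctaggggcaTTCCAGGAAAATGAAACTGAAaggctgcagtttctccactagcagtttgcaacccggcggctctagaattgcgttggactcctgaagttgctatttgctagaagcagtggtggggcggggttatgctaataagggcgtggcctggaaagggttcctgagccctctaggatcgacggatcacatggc
Uba7, chr9:107975317-107975616, plus strand: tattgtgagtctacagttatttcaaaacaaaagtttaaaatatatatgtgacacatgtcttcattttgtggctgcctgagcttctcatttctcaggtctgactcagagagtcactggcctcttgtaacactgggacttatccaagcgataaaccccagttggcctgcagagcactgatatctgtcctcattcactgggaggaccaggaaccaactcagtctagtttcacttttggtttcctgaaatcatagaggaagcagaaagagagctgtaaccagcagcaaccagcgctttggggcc

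Ifit1 held 3 ISRE-like copies starting at positions -109, -103 and -84 relative to the gene start, and Isg15 held 3 at -78, -72 and -66. Oas3 held 2, at -75 and -69. Bst2, at -136, and Ifitm3, at 13, held a GAS-like copy beside 2 ISRE-like copies each. In Uba7 these letters did not occur within this window, but 1 copy of another ISRE-like spelling, AAANNGAAA on either strand, did. Of the 22 genes higher at day 2, 17 had a window, of which 5 held an ISRE-like and 5 a GAS-like copy. Of the 16 whose test did not pass at day 2, 15 had a window, of which 12 held an ISRE-like and 3 a GAS-like copy. Ifit1 and Rsad2, the 2 lower genes with a window, both held ISRE-like copies, in Rsad2 1 at -119, and no GAS-like copy. At day 5, 21 of the 25 genes that were higher had a window, and 10 of these held an ISRE-like and 3 a GAS-like copy. These counts describe letters in windows, and no test was made of them. They depend on the letters chosen. With AAANNGAAA, the genes Isg20, Xaf1, Uba7, Sp100 and Lgals3bp, all higher at day 2, gained an ISRE-like copy. Among genes not past the test at day 2, Oasl1 gained a copy, and Adar and Trim25 lost theirs. With TTCCNGGAA in place of the GAS-like letters, only Bst2 and Ifit2 held a copy, both higher at day 2.

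Levels are given as normalized counts, the reads of a gene divided by the size factor of its library, with the value of replicate 1 first. Reads on genes numbered 24746109 to 37056508 per library. Changes are differences of log2(normalized count + 1) with the standard error (SE) after ±, and every adjusted p is from limma with the Benjamini-Hochberg adjustment over all genes with a mean above 10 in the libraries of that comparison, with a call at an adjusted p under 0.1. A gene for which no library of a group had more than 3 reads is treated as at the floor, and a fold against it is a lower bound over 3 reads per library. The labeled cell types bore their markers, as 6 ESC markers summed to 164848 and 160876 in ESCs and at most 126 in NPCs, and 6 NPC markers to 51803 and 48468 in NPCs and at most 817 in ESCs. Y-linked transcripts, which the female line lacks and the male feeders hold, were present at day 2, where 4 such genes summed to 253 and 218 in control and 125 and 223 with IFNγ, against at most 12.5 in every library of the other 10 populations. Fibroblast markers do not tell feeders from NPCs, since 8 of them summed to 30196 and 43108 in NPCs and to 61408 and 41396 in day 2 controls. Of 6 macrophage markers, Ptprc, the gene of the leukocyte antigen CD45, was at most 16 in every library, and the 6 summed to between 106 and 2961.

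Without IFNγ, these transcripts were scarcer in NPCs than in day 2 control cells on feeders. The 44 genes together took 0.0230% and 0.0243% of the normalized counts in NPCs and 0.179% and 0.188% in day 2 controls. Of the 43 genes tested, all 43 were higher in day 2 controls than in NPCs (limma), against 31.6% of all genes tested, and 0 were lower, against 37.6% of all. At an unadjusted p under 0.05 the count of lower genes was also 0, as it was with DESeq2 and edgeR. The median log2 fold change was 4.72, or 4.68 with genes at the floor set to their bound, against -0.08 over all genes. Of the 43, 16 passed the filter on low values only through the day 2 cells. Feeder RNA, culture on feeders, doxycycline with the reprogramming cassette, LIF, ascorbic acid and another medium all came with these day 2 libraries. They cannot be told apart by this comparison. Fewer expressing cells and less RNA per cell cannot be told apart in bulk RNA either. The part of any of these in the difference was not tested.

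Ifit1, whose product binds foreign RNA caps and blocks their translation, had 0 and 0.878 normalized counts in NPCs and 2154 and 2029.7 in day 2 controls, at least 753-fold more. Oas2, a synthetase of the 2′-5′ oligoadenylates that activate RNase L, had 0 and 0 in NPCs and 1255 and 1384 in day 2 controls, at least 475-fold more. The floor of 3 reads per library held 12 of the 44 genes in NPCs, among them all OAS genes, and only Trex1 in the libraries of days 2 and 5. Trex1, which encodes a DNA exonuclease, was listed at 0 in all 24 libraries and could not be tested. All of its exon bases (100%) overlap Atrip on the same strand in GENCODE vM21, and how reads shared by overlapping genes were counted is not given in the sources used here.

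Levels in the control arm then fell. From day 2 to day 5, 34 of 43 genes tested were lower, against 35.6% of all genes tested, and 5 were higher, against 34.9% of all. The median log2 fold change was -1.59, against 0.00 over all genes. Of the 43, 4 passed the filter on low values only through the day 2 cells, Ifi44 among them. Day 2 and day 5 cells were sorted through different gates, so time and gate cannot be told apart. All 8 fibroblast markers were lower at day 5 as well (median log2 fold change -4.89). So were all 4 Y-linked genes, which mark the male feeders (median -4.90). The part of feeder RNA in the fall was not tested. Ifi44, an interferon-induced protein that restrains infection, went from 1498 and 1364 to 9.26 and 6.22 normalized counts (log2 fold change -7.38 ± 0.24, adjusted p = 2.7e-06). The 5 that were higher were Oas1g, Ifitm2, Trim25, Pml and Tor3a. Pml, the scaffold of PML nuclear bodies, went from 647 and 603 to 3499 and 3652 (log2 fold change 2.51 ± 0.078, adjusted p = 2.7e-06). Both libraries of day 5 lay above both of day 2 for Pml, and below them for Ifi44.

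**Figure D1:**
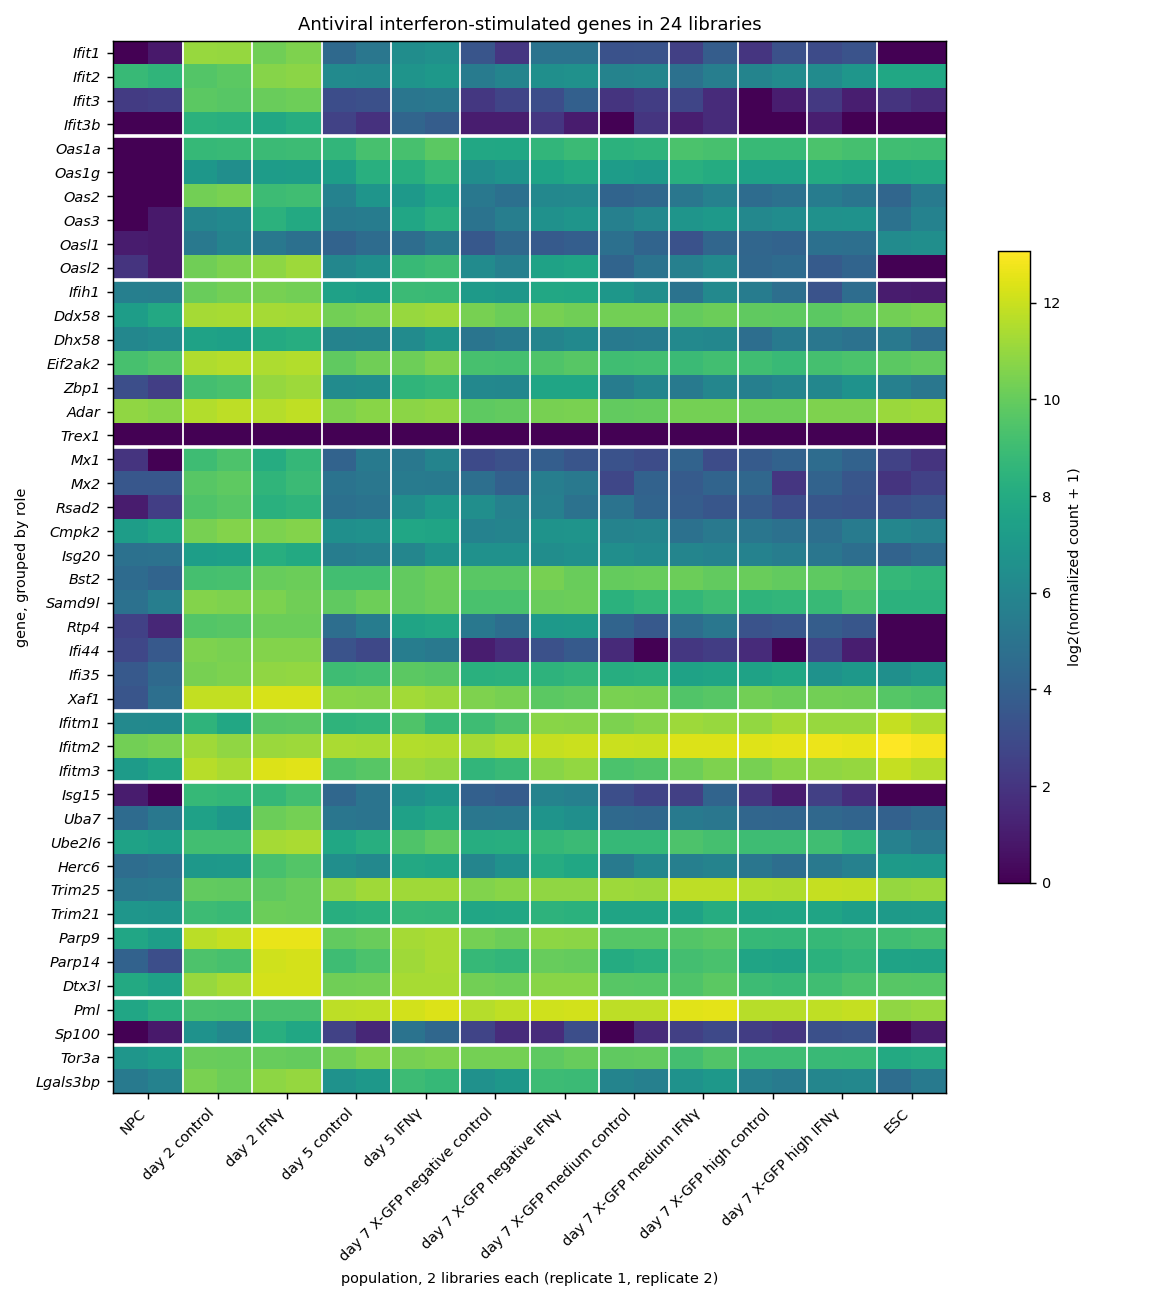
Heat map of the 44 genes (rows, grouped by role) in 24 libraries (columns, 2 per population, replicate 1 then 2). Color gives log2(normalized count + 1). NPC columns are darker than day 2 control columns in every row except Trex1, day 2 columns are the brightest for most rows, and the IFITM genes, Trim25, Adar, Ddx58 and Pml stay bright in ESCs.

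ESCs held a divided set. Of 32 genes tested against NPCs, 23 were higher, against 42.2% of all genes tested, and 5 were lower, against 43.4% of all, with a median log2 fold change of 2.61 against -0.03 over all genes. Of the 32, 7 passed the filter through only 1 of the 2 populations. By mean normalized count per kilobase of exon, the 3 genes with the highest levels in ESCs were the IFITM genes, with 12065 for Ifitm2, 5081 for Ifitm3 and 3099.8 for Ifitm1, followed by Bst2 with 438. Oas1a had 0 and 0 normalized counts in NPCs and 531 and 512 in ESCs, at least 188-fold more. At the floor in ESCs were 10 genes, namely Ifi44, Ifih1, Ifit1, Ifit3, Ifit3b, Isg15, Oasl2, Rtp4, Sp100 and Trex1. The 5 lower than in NPCs were Ifit2, Ifih1, Dhx58, Cmpk2 and Ube2l6. Ifih1, which encodes the RNA sensor MDA5, had 48.6 and 47.4 in NPCs and 0.983 and 0.952 in ESCs, at least 16.6-fold less. Against control cells of the high gate, 14 of 33 genes tested were higher in ESCs and 12 lower, against 37.8% and 37.9% of all genes tested, with a median of -0.04, which lay between -0.13 and 0.08 when 1 library was left out. These shares lie near those of all genes.

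With IFNγ present, the genes moved in both directions at day 2 and in 1 direction at day 5. At day 2, 22 of 43 genes tested were higher than in control cells, against 5.03% of all genes tested, and 5 were lower, against 3.45% of all. The median log2 fold change was 0.40, and it was 0.01 over all genes. At day 5, 25 of 42 were higher, against 1.65% of all genes tested, and 0 were lower, against 0.535% of all. The median was 1.00, against 0.00 over all genes. No gene was lower at day 5 at an unadjusted p under 0.05, and none with DESeq2 or edgeR (0 each). No gene passed the filter at day 2 through only 1 arm, and 3 did at day 5. In the fit of all 24 libraries together, 14 genes were higher and 1 (Oas2) lower at day 2. Of the 22 higher calls at day 2, 18 held in each of the 4 fits that left out 1 library, as did 3 of the 5 lower calls and 15 of the 25 higher calls at day 5. Without control replicate 1, 3 genes were lower at day 2.

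Differences were present at day 7 as well, 2 days after withdrawal. In the negative gate, 31 of 38 genes tested were higher in the IFNγ arm, against 31.1% of all genes tested, and 3 were lower, against 30.8%, with a median log2 fold change of 0.81 against 0.02 over all genes. With the libraries rescaled to 1 total the median of all genes there was 0.17, and 33 of the antiviral genes were higher and 2 lower, against 6730 and 3417 of all genes (4836 and 4781 before). In the medium gate, 17 of 37 were higher, against 33.3%, and 9 lower, against 29.6%, with a median of 0.37 against 0.04. Of the 9 lower calls there, 4 held in every fit that left out 1 library, and 5 genes were lower without either control library, with a median of 0.18 without control replicate 1. In the high gate, 11 of 36 were higher, against 18.1%, and 4 lower, against 20.4%, with a median of 0.26 against 0.03. Of the 11 higher calls in the high gate, 4 held in every fit that left out 1 library, as did 1 of the 4 lower calls, and the 15 calls became 7 without control replicate 1 and 8 without control replicate 2, with 2 lower genes also without IFNγ replicate 2. In each of the 3 gates 1 gene passed the filter through only 1 arm. With IFNγ, 5 of 6 ESC markers were also higher, and Pou5f1 lower, in the negative and medium gates, and 3 were higher in the high gate. The 8 fibroblast markers summed to 5065 and 4443 in negative-gate controls and 1035 and 1025 with IFNγ. In the medium gate the sums were 5612 and 5042 against 690 and 743, and in the high gate 2614 and 2125 against 612 and 686. These markers did not move as a set. Of 7 tested in the negative gate, Dcn was lower and Pdgfrb higher (median log2 fold change -0.15). In the medium gate 4 of 7 were lower and 2 (Pdgfrb and Col3a1) higher, with a median of -0.64. Of 6 tested in the high gate, Dcn was lower and Thy1 higher, with a median of 0.35. Of the 6 macrophage markers, only 2, Csf1r and Cd68, passed the filter on low values, and both were lower with IFNγ in all 3 gates. The 6 summed to 1133 to 2961 in the controls and 521 to 1216 with IFNγ. The part of these lists in the differences was not tested.

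**Figure D2:**
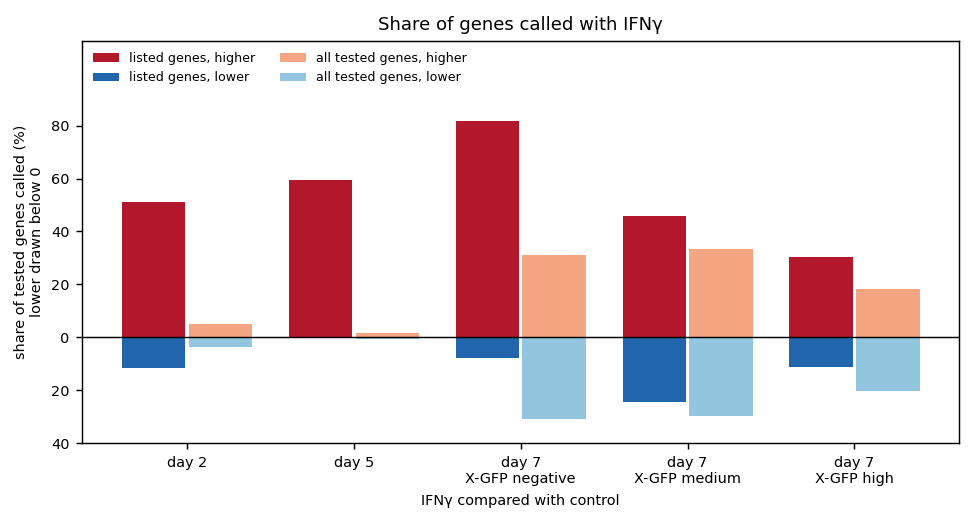
Bars give the share of tested genes called with IFNγ in percent (vertical axis, lower calls drawn below 0) in 5 comparisons, for the antiviral genes (dark) and for all tested genes (pale). The dark bars for higher genes stand at 51.2% at day 2, 59.5% at day 5, 81.6% in the negative gate, 45.9% in the medium gate and 30.6% in the high gate, each above its pale bar.

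Across the 5 comparisons, 39 genes were higher in at least 1, 14 were lower in at least 1, and 12 were in both sets. The like shares of all genes were not counted, so these counts cannot be set against them. In the negative gate alone, 31.1% of all genes tested were higher and 30.8% lower. Only Parp14 and Ifitm3 were higher in all 5. Ifit3b and Oasl1 were tested in at least 1 comparison and never called. The per-library values that follow are for the genes that a rule singled out in each role group, 30 of the 44, and for Ifit3, Ifit3b, Oasl2, Isg15, Ube2l6 and Dtx3l, which, like Ifi44 above, were chosen after their values were seen.

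**Figure D3:**
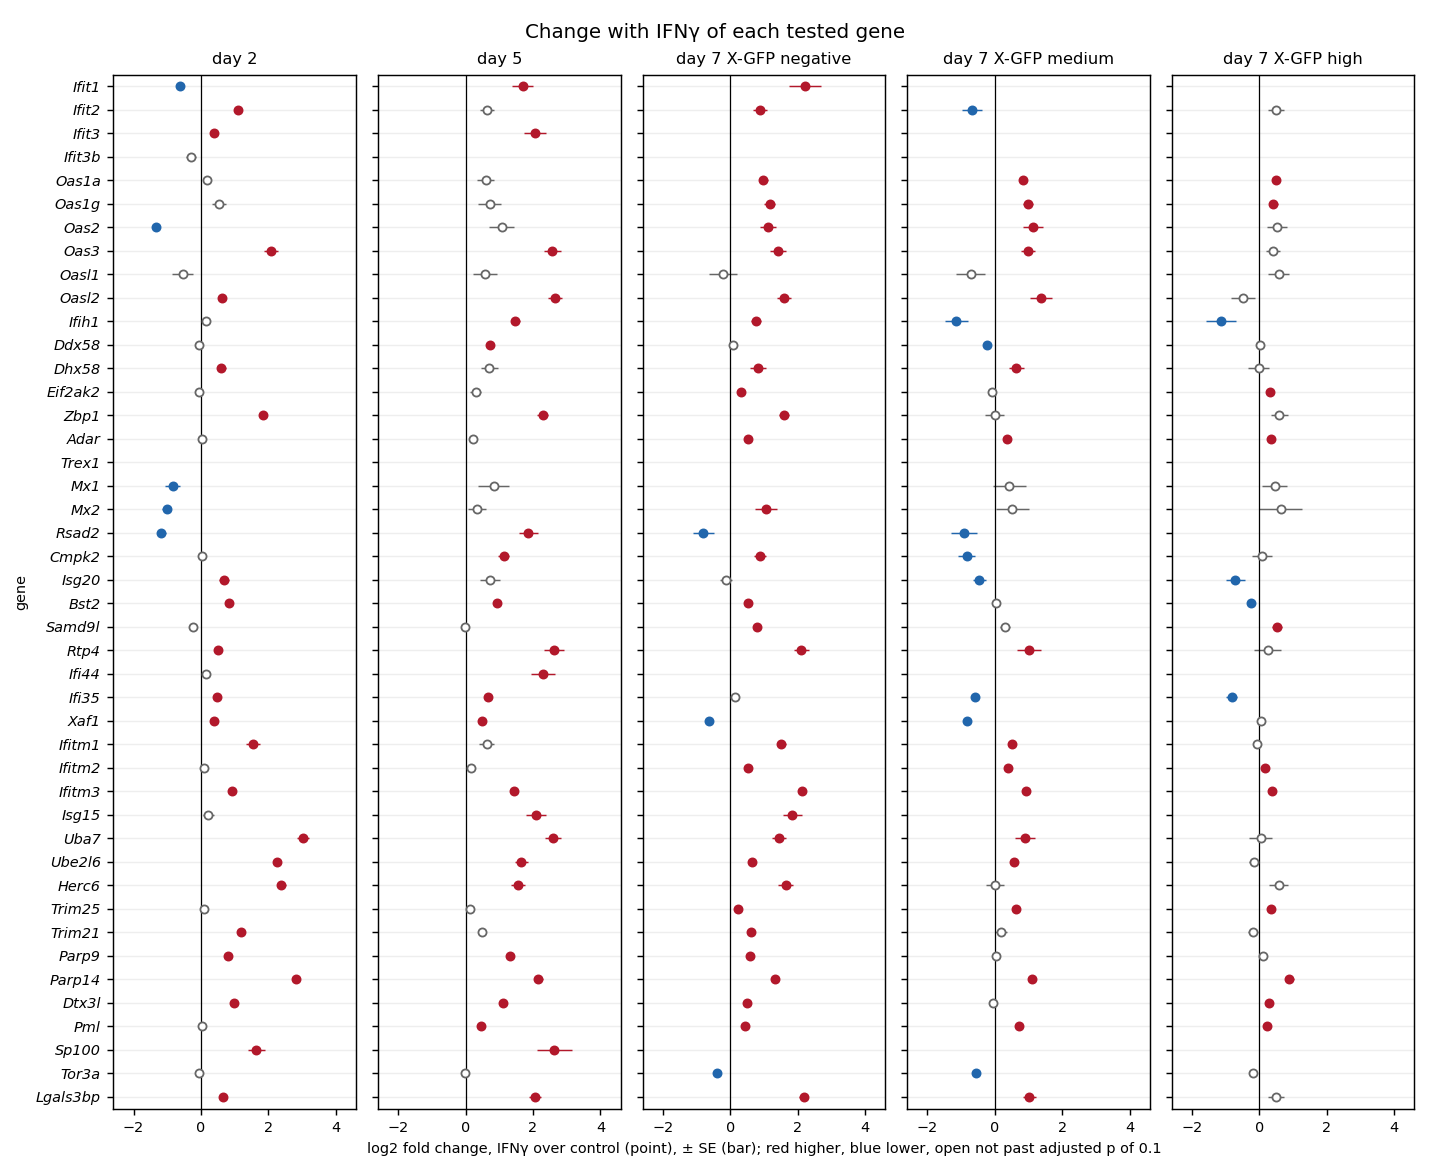
Each point is the log2 fold change of 1 gene with IFNγ over control (horizontal axis) with its SE (bar), in 5 panels for the 5 comparisons, red where higher, blue where lower and open where the adjusted p was not under 0.1. Genes below the filter have no point. Parp14 and Ifitm3 are red in every panel, and Ifit1, Oas2, Mx1, Mx2 and Rsad2 are blue at day 2.

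The IFIT genes, on chromosome 19 in 1 cluster, encode tetratricopeptide proteins that bind foreign RNA or the translation machinery. At day 2 Ifit1 was lower with IFNγ and Ifit2 and Ifit3 were higher. Ifit1 (chr19:34640871-34650009 of GRCm38, plus strand) had 2154 and 2029.7 normalized counts in control and 1219.9 and 1485 in treated cells (log2 fold change -0.63 ± 0.10, adjusted p = 0.019), and the arms did not overlap. The call was lost without control replicate 1. At day 5 the values were 21 and 35.5 in control and 84.5 and 98.1 with IFNγ (log2 fold change 1.70 ± 0.31, adjusted p = 0.071), a call lost without control replicate 1 or IFNγ replicate 2. In the negative gate control libraries had 9.87 and 3.22 and treated ones 30.1 and 30.7 (log2 fold change 2.21 ± 0.48, adjusted p = 0.0039). Ifit1 was thus lower in the treated arm at day 2 and higher at day 5, and the effect of IFNγ differed between the days by 2.33 ± 0.32 log2 units (adjusted p = 0.015), a call lost without control replicate 2 or IFNγ replicate 1 of day 2. Ifit2 had 747 and 875 in control and 1668 and 1799 with IFNγ at day 2 (log2 fold change 1.10 ± 0.095, adjusted p = 0.0016). In the medium gate it was lower with IFNγ, at 28 and 47.1 against 56.3 and 60.9 (log2 fold change -0.67 ± 0.28, adjusted p = 0.067), a call that was lost without either control library or the first treated one. Ifit3 had 888 and 828 in control and 1084 and 1177 with IFNγ at day 2 (log2 fold change 0.40 ± 0.08, adjusted p = 0.045) and 7.57 and 7.99 in control and 33.6 and 37.2 with IFNγ at day 5 (log2 fold change 2.05 ± 0.33, adjusted p = 0.052). Both calls for Ifit3 were lost without either control library or IFNγ replicate 2. Ifit3b, a near copy of Ifit3, had 323 and 299 in control and 227 and 278 with IFNγ at day 2 and did not pass. Reads that fit both copies could have been split or dropped in counting, so values of this pair are uncertain.

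The OAS genes lie on chromosome 5 and encode oligoadenylate synthetases or related proteins without that activity. Oas3 and Oasl2 were higher with IFNγ in 4 of the 5 comparisons, whereas Oas2 was lower at day 2. Oas3 (chr5:120753098-120777661, minus strand) had 61.1 and 73.4 normalized counts in control and 332 and 242 in treated cells at day 2 (log2 fold change 2.07 ± 0.21, adjusted p = 0.0031), and 38.7 and 44.4 in control and 210.4 and 302 with IFNγ at day 5 (log2 fold change 2.58 ± 0.24, adjusted p = 0.0041). The arms lay apart on both days. Oas2 had 1255 and 1384 in control and 495 and 538 with IFNγ at day 2 (log2 fold change -1.35 ± 0.088, adjusted p = 0.0004), the only lower call at day 2 that held in every fit that left out 1 library and under every other setting. At day 5 its treated libraries were above the controls, at 132 and 203 against 53.9 and 111, without passing the test (log2 fold change 1.07 ± 0.37, adjusted p = 0.21). In the negative gate Oas2 was higher with IFNγ, at 66.6 and 71.3 against 36.2 and 26.8 (log2 fold change 1.12 ± 0.24, adjusted p = 0.0038), and in the medium gate it had 35.8 and 52.3 against 17.8 and 20.7 (log2 fold change 1.13 ± 0.30, adjusted p = 0.0098).

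Oas1a and its close copy Oas1g did not pass the test at days 2 and 5 and were higher with IFNγ in all 3 gates of day 7. Oas1a had 429 and 443 in control and 483 and 501 in treated cells at day 2 (log2 fold change 0.17 ± 0.092, adjusted p = 0.34). At day 7 controls had 224 and 217 and treated cells 394 and 483 in the negative gate (log2 fold change 0.98 ± 0.13, adjusted p = 0.00022), and in the high gate 447 and 441 and 650.1 and 602 in the same order (log2 fold change 0.49 ± 0.10, adjusted p = 0.0035). Its treated libraries lay above the controls in each gate. Oas1a and Oas1g share much sequence, so the assignment of reads between them is uncertain. Oasl1, a regulator of Irf7 translation, passed no test, and its log2 fold change ranged from -0.72 in the medium gate to 0.57 in the high gate, where it had 18.6 and 17.1 in control and 27.4 and 26.6 in treated cells. Oasl2 had 1211 and 1444 in control and 1839 and 2248 with IFNγ at day 2 (log2 fold change 0.62 ± 0.12, adjusted p = 0.041), a call lost without control replicate 1, and 64.8 and 88.8 in control and 448 and 518 with IFNγ at day 5 (log2 fold change 2.65 ± 0.20, adjusted p = 0.0015). Its arms lay apart on both days.

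Among the sensors, Zbp1 carried the largest change at day 2, and the receptors Ifih1 and Ddx58 were higher at day 5. Zbp1 encodes a sensor of left-handed nucleic acid that can trigger necroptosis. Zbp1 (chr2:173206612-173218923, minus strand) had 574 and 632 normalized counts in control and 2055 and 2259 in treated cells at day 2 (log2 fold change 1.84 ± 0.084, adjusted p = 6.5e-05), and 77.4 and 83.5 in control and 376 and 418 with IFNγ at day 5 (log2 fold change 2.29 ± 0.16, adjusted p = 0.0011). It was still higher in the negative gate, at 201 and 203 against 66.9 and 65.4 (log2 fold change 1.59 ± 0.15, adjusted p = 3.8e-05), whereas in the medium gate the arms overlapped, at 41.4 and 62.7 against 43.5 and 59.9 (log2 fold change 0.00 ± 0.28, adjusted p = 1).

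Ifih1 did not pass at day 2, with 1086 and 1231 in control and 1316 and 1249 in treated cells (log2 fold change 0.15 ± 0.083, adjusted p = 0.37). At day 5 it was higher with IFNγ, at 475 and 461 against 174 and 162 (log2 fold change 1.47 ± 0.14, adjusted p = 0.0041), and in the negative gate at 231 and 209.8 against 136 and 121 (log2 fold change 0.77 ± 0.14, adjusted p = 0.0017). It was lower with IFNγ in the medium gate, at 30.2 and 69 against 119.6 and 87.8 (log2 fold change -1.15 ± 0.34, adjusted p = 0.017), and in the high gate, at 9.14 and 24.3 against 44.3 and 26.7 (log2 fold change -1.15 ± 0.44, adjusted p = 0.068). In these 2 gates the lowest control lay above the highest treated library. The call in the high gate was lost without control replicate 1 or without IFNγ replicate 1. In the control arm Ifih1 was also lower in the high than in the negative gate (log2 fold change -1.87 ± 0.25, adjusted p = 4.2e-05). Ddx58, which encodes RIG-I, had 154 and 237 in NPCs, 1250.0 and 1370.4 in ESCs, 2557 and 2655 in day 2 controls and 2497 and 2450.0 in day 2 treated cells. It was higher with IFNγ at day 5, at 2099.8 and 2291 against 1264 and 1369 (log2 fold change 0.74 ± 0.09, adjusted p = 0.016), and lower in the medium gate, at 1012 and 1121 against 1244 and 1252 (log2 fold change -0.23 ± 0.077, adjusted p = 0.028), a call lost without either control library. Adar, the editor of double-stranded RNA, was called in the 3 gates of day 7 only, with log2 fold changes of 0.52, 0.37 and 0.35. It had 3069 and 3453 in control and 3095 and 3577 in treated cells at day 2 (log2 fold change 0.03 ± 0.09, adjusted p = 0.89), with overlapping arms. Of Adar's exon bases 16.8% overlap Chrnb2 on the opposite strand. Dhx58, another receptor of the RIG-I family, was higher in the negative gate (log2 fold change 0.83 ± 0.24, adjusted p = 0.015) and also called higher at day 2 (log2 fold change 0.59 ± 0.14, adjusted p = 0.067), where the call was lost without any 1 of the 4 libraries, and in the medium gate, where it was lost without either control. Eif2ak2, which encodes the kinase PKR, was higher in the negative and high gates, with log2 fold changes of 0.33 and 0.31, calls lost without IFNγ replicate 2 of either gate and, in the high gate, also without control replicate 2.

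The antiviral effectors were split at day 2. Of the 11 genes, 5 were higher (Isg20, Bst2, Rtp4, Ifi35 and Xaf1) and 3 were lower (Mx1, Mx2 and Rsad2). Rsad2 encodes viperin, which makes a chain-terminating ribonucleotide. Rsad2 (chr12:26442746-26456452, minus strand) had 697 and 815 normalized counts in control and 311 and 356 in treated cells at day 2 (log2 fold change -1.18 ± 0.12, adjusted p = 0.0033), with no overlap. At day 5 the order was turned, with 26.9 and 30.2 in control and 86.2 and 130.5 with IFNγ (log2 fold change 1.86 ± 0.28, adjusted p = 0.043), a call lost without control replicate 1 or IFNγ replicate 2. Rsad2 was lower again in the negative gate, at 50.5 and 29.7 against 87.8 and 52.6 (log2 fold change -0.79 ± 0.32, adjusted p = 0.063), and in the medium gate it had 13.4 and 10.5 against 30.6 and 17.6 (log2 fold change -0.91 ± 0.39, adjusted p = 0.07). Both calls were lost without control replicate 1 or IFNγ replicate 2 of their gate. Mx2 belongs to the dynamin-like GTPases and is listed in GENCODE vM21 as a polymorphic pseudogene. Mx2 had 814 and 903 in control and 376 and 476 with IFNγ at day 2 (log2 fold change -1.02 ± 0.13, adjusted p = 0.0092). Mx1, its close relative, had 521 and 692 in control and 273 and 413 with IFNγ (log2 fold change -0.84 ± 0.22, adjusted p = 0.095), a call that was lost without either control library or IFNγ replicate 1, and with edgeR. Reads shared by Mx1 and Mx2 make the split between them uncertain. Mx2 was higher with IFNγ in the negative gate (log2 fold change 1.06 ± 0.33, adjusted p = 0.021), a call lost without control replicate 2.

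Bst2 encodes tetherin, which holds virions at the cell surface. It had 592 and 612 in control and 1027 and 1134 in treated cells at day 2 (log2 fold change 0.84 ± 0.084, adjusted p = 0.0029), and 559 and 557 in control and 982 and 1137 with IFNγ at day 5 (log2 fold change 0.92 ± 0.11, adjusted p = 0.016). In the high gate it was lower with IFNγ, at 908 and 819 against 1066 and 977 (log2 fold change -0.24 ± 0.092, adjusted p = 0.066), a call lost without either control library or IFNγ replicate 2. Xaf1, which encodes a pro-apoptotic partner of XIAP, was higher at day 2, at 4912 and 4927 against 3698 and 3793 (log2 fold change 0.39 ± 0.05, adjusted p = 0.0089), and at day 5, at 2460.2 and 2225 against 1688 and 1650.1 (log2 fold change 0.49 ± 0.085, adjusted p = 0.062), the latter a call lost without either control library. After withdrawal it was lower, at 881 and 945 against 1465 and 1354 in the negative gate (log2 fold change -0.63 ± 0.081, adjusted p = 0.00021) and 743 and 819 against 1404 and 1338 in the medium gate (log2 fold change -0.81 ± 0.08, adjusted p = 2.1e-05). In the high gate its arms overlapped (log2 fold change 0.04 ± 0.083, adjusted p = 0.73). Rsad2 and Xaf1 were the only 2 of the 44 genes called higher at day 5 and lower in the negative gate.

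Ifi35, an interferon-induced leucine zipper protein, had 1344 and 1458 in control and 1913 and 2009.7 with IFNγ at day 2 (log2 fold change 0.49 ± 0.069, adjusted p = 0.014). It was lower with IFNγ in the medium gate, at 187 and 199 against 283 and 302 (log2 fold change -0.60 ± 0.12, adjusted p = 0.0024), and in the high gate, at 102 and 125 against 185 and 218 (log2 fold change -0.83 ± 0.18, adjusted p = 0.0043). Its arms lay apart in all 3 comparisons, with the treated libraries above the controls at day 2 and below them in both gates. Isg20, an exonuclease of single-stranded RNA, had 162 and 172 in control and 292 and 241 with IFNγ at day 2 (log2 fold change 0.67 ± 0.15, adjusted p = 0.063), and in the high gate 53.6 and 44.8 in control and 34.3 and 25.4 with IFNγ (log2 fold change -0.71 ± 0.28, adjusted p = 0.074). Its call at day 2 was lost without either control library or IFNγ replicate 1, and that in the high gate without either control library or IFNγ replicate 2. In the medium gate Isg20 was lower as well (log2 fold change -0.45 ± 0.21, adjusted p = 0.086), with the call lost in the same way. Cmpk2, a mitochondrial nucleotide kinase and neighbor of Rsad2, had 1339 and 1609.9 in control and 1441 and 1584 with IFNγ at day 2 with overlapping arms (log2 fold change 0.04 ± 0.10, adjusted p = 0.86). It was higher with IFNγ at day 5 (log2 fold change 1.12 ± 0.18, adjusted p = 0.046), a call lost without either control or IFNγ replicate 2, and lower in the medium gate, at 28 and 37.6 against 56.3 and 60.9 (log2 fold change -0.83 ± 0.25, adjusted p = 0.018), a call lost without control replicate 2. Samd9l, an inhibitor of translation, was higher in the negative gate (log2 fold change 0.79 ± 0.08, adjusted p = 5.4e-05) and the high gate, where the call was lost without control replicate 1 or IFNγ replicate 2. Rtp4, a receptor chaperone, was higher in all comparisons except the high gate, and its call in the medium gate was lost without control replicate 2 or IFNγ replicate 2. Ifi44 was higher at day 5, a call lost without control replicate 2 or IFNγ replicate 2.

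The 3 IFITM genes encode small membrane proteins that stop viral fusion. Ifitm3 was higher with IFNγ in all 5 comparisons. Ifitm3 (chr7:141009586-141010770, minus strand) had 3194 and 2729 normalized counts in control and 5414 and 5773 in treated cells at day 2 (log2 fold change 0.92 ± 0.084, adjusted p = 0.002), and 699 and 825 in control and 2176 and 1943 with IFNγ at day 5 (log2 fold change 1.44 ± 0.11, adjusted p = 0.0018). In the negative gate it had 381 and 460.3 in control and 1735 and 1953 with IFNγ (log2 fold change 2.13 ± 0.11, adjusted p = 1.5e-06), in the medium gate 649 and 724 in control and 1157 and 1469 with IFNγ (log2 fold change 0.93 ± 0.11, adjusted p = 8.1e-05), and in the high gate 1349.8 and 1725 in control and 1888 and 2046 with IFNγ (log2 fold change 0.36 ± 0.11, adjusted p = 0.022). The arms did not overlap in any of the 5, although the call in the high gate was lost without control replicate 1. Its difference was larger in the negative gate than at day 5, by 0.70 ± 0.17 (adjusted p = 0.016), and smaller in the medium than in the negative gate (difference of log2 fold changes -1.21 ± 0.18, adjusted p = 0.0038).

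In control cells Ifitm3 was higher in the high than in the negative gate (log2 fold change 1.86 ± 0.12, adjusted p = 2.3e-07). Ifitm1 had 362 and 230.3 in control and 829 and 852 with IFNγ at day 2 (log2 fold change 1.54 ± 0.20, adjusted p = 0.0095). In the negative gate it had 507 and 691 in control and 1721 and 1664 with IFNγ (log2 fold change 1.51 ± 0.13, adjusted p = 1.9e-05), and in the high gate the arms overlapped (log2 fold change -0.07 ± 0.10, adjusted p = 0.6). Ifitm1, too, was higher in high-gate than in negative-gate controls (log2 fold change 1.92 ± 0.14, adjusted p = 3.9e-07). Ifitm2 had 2318 and 1911 in control and 2161 and 2267 with IFNγ at day 2 with overlapping arms (log2 fold change 0.07 ± 0.10, adjusted p = 0.73). It had 2545 and 2997 in control and 3861 and 4147 with IFNγ in the negative gate (log2 fold change 0.53 ± 0.085, adjusted p = 0.00068), and its small difference in the high gate (log2 fold change 0.17 ± 0.072, adjusted p = 0.099) was lost with edgeR and DESeq2, and without either control library or IFNγ replicate 1. Of Ifitm2's exon bases 40.9% overlap a predicted gene on the same strand, and the IFITM genes resemble each other, so their read assignment is uncertain.

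The ISG15 system was unevenly affected, with its enzymes higher and its modifier not past the test at day 2. Uba7 (chr9:107975505-107984060, plus strand), the activating enzyme for ISG15, had 175 and 123 normalized counts in control and 1137 and 1285 in treated cells at day 2, the highest estimate of the 44 genes (log2 fold change 3.03 ± 0.18, adjusted p = 0.00021), with the arms apart. At day 5 it had 33.7 and 32 in control and 179 and 229 with IFNγ (log2 fold change 2.59 ± 0.22, adjusted p = 0.0028), and in the high gate 18.6 and 18.1 in control and 20.6 and 17.3 with IFNγ with overlapping arms (log2 fold change 0.04 ± 0.34, adjusted p = 0.94). Ube2l6, the conjugating enzyme, rose from 551 and 555 to 2569 and 2702 (log2 fold change 2.25 ± 0.066, adjusted p = 7e-06). Herc6, the ligase of this pathway in mice, rose from 126 and 133 to 622 and 747 (log2 fold change 2.39 ± 0.13, adjusted p = 0.00018), while in the high gate it had 34 and 25.6 in control and 37.7 and 52 with IFNγ (log2 fold change 0.57 ± 0.29, adjusted p = 0.17). Isg15 itself had 435 and 396 in control and 415 and 559 with IFNγ at day 2, with overlapping arms (log2 fold change 0.21 ± 0.15, adjusted p = 0.5). It was higher with IFNγ at day 5, at 96.6 and 119 against 19.4 and 31.1 (log2 fold change 2.08 ± 0.31, adjusted p = 0.036), a call lost without IFNγ replicate 2, and in the negative gate at 55.8 and 50.5 against 15.4 and 12.9 (log2 fold change 1.84 ± 0.28, adjusted p = 0.0005).

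The ligase Trim25, an activator of RIG-I, did not pass at days 2 and 5 and was higher with IFNγ in the 3 gates of day 7. The call in the negative gate was lost without control replicate 1. Trim25 had 976 and 939 in control and 939 and 1081 with IFNγ at day 2 (log2 fold change 0.07 ± 0.089, adjusted p = 0.7), 2273 and 2164 in control and 3462 and 3467 with IFNγ in the medium gate (log2 fold change 0.64 ± 0.061, adjusted p = 1.6e-05), and 3026 and 2877 in control and 3843 and 3685 with IFNγ in the high gate (log2 fold change 0.35 ± 0.069, adjusted p = 0.0027). At day 2 the arms overlapped, and in both gates they did not. Trim21, a cytosolic antibody receptor, was higher at day 2 (log2 fold change 1.20 ± 0.087, adjusted p = 0.0007) and in the negative gate (log2 fold change 0.61 ± 0.12, adjusted p = 0.0022).

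Parp14, Parp9 and Dtx3l lie close together on chromosome 16 and encode ADP-ribosyltransferases and the ubiquitin ligase that partners PARP9. All 3 were higher with IFNγ at days 2 and 5 and in the negative gate. Parp14 (chr16:35832874-35871544, minus strand) had 678 and 620.3 normalized counts in control and 4391 and 4758 in treated cells at day 2 (log2 fold change 2.82 ± 0.075, adjusted p = 4.4e-06), and 506 and 649 in control and 2381 and 2733 with IFNγ at day 5 (log2 fold change 2.15 ± 0.14, adjusted p = 0.00081). It had 431 and 381 in control and 1059 and 1001 with IFNγ in the negative gate (log2 fold change 1.34 ± 0.10, adjusted p = 8e-06), 259 and 300.5 in control and 565 and 632 with IFNγ in the medium gate (log2 fold change 1.10 ± 0.11, adjusted p = 3.1e-05), and 199 and 186 in control and 328 and 387 with IFNγ in the high gate (log2 fold change 0.89 ± 0.14, adjusted p = 0.00059). The arms lay apart in all 5 comparisons, and the 5 calls held in every fit that left out 1 library and under every other setting. Parp9 had 3371 and 3922 in control and 6273 and 6416 with IFNγ at day 2 (log2 fold change 0.80 ± 0.078, adjusted p = 0.0027), 986 and 1101 in control and 2511 and 2703 with IFNγ at day 5 (log2 fold change 1.32 ± 0.093, adjusted p = 0.0011), and overlapping arms in the medium gate (log2 fold change 0.03 ± 0.086, adjusted p = 0.76). Parp9 and Dtx3l share a divergent start, with 9.40% and 8% of their exon bases overlapping on opposite strands. Dtx3l had 2142 and 2634 in control and 4708 and 4731 with IFNγ at day 2 (log2 fold change 0.99 ± 0.10, adjusted p = 0.0027).

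Of the PML body genes, Sp100 was higher at day 2 and Pml was not past the test at that day. Sp100 (chr1:85649988-85709998, plus strand) had 101 and 67.5 normalized counts in control and 307 and 219.7 in treated cells (log2 fold change 1.64 ± 0.25, adjusted p = 0.018), and 5.05 and 1.78 in control and 30.2 and 19.8 with IFNγ at day 5 (log2 fold change 2.63 ± 0.52, adjusted p = 0.085), where the call was lost without control replicate 2 or IFNγ replicate 2. Pml had 647 and 603 in control and 638 and 646 with IFNγ at day 2 with overlapping arms (log2 fold change 0.04 ± 0.084, adjusted p = 0.84). It was higher with IFNγ in the medium gate, at 5629 and 5846 against 3492 and 3531 (log2 fold change 0.71 ± 0.057, adjusted p = 5.8e-06), and in the high gate, at 3662 and 3927 against 3243 and 3234 (log2 fold change 0.23 ± 0.069, adjusted p = 0.027), the latter a call lost without either control library. Lgals3bp, a secreted galectin-3 binding protein, had 1366 and 1162 in control and 1869 and 2061 with IFNγ at day 2 (log2 fold change 0.64 ± 0.10, adjusted p = 0.016), 100.2 and 124 in control and 499 and 435 with IFNγ at day 5 (log2 fold change 2.05 ± 0.17, adjusted p = 0.0025), and 95.5 and 118 in control and 489 and 480.1 with IFNγ in the negative gate (log2 fold change 2.18 ± 0.14, adjusted p = 4.5e-06). Its arms lay apart in these 3 comparisons. Tor3a, a torsin ATPase, was lower with IFNγ in the negative gate, at 914 and 1042 against 1273 and 1289 (log2 fold change -0.39 ± 0.086, adjusted p = 0.0042), and in the medium gate, at 563 and 729 against 934 and 963 (log2 fold change -0.57 ± 0.11, adjusted p = 0.0021), and was higher in none of the 5 comparisons.

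**Figure D4:**
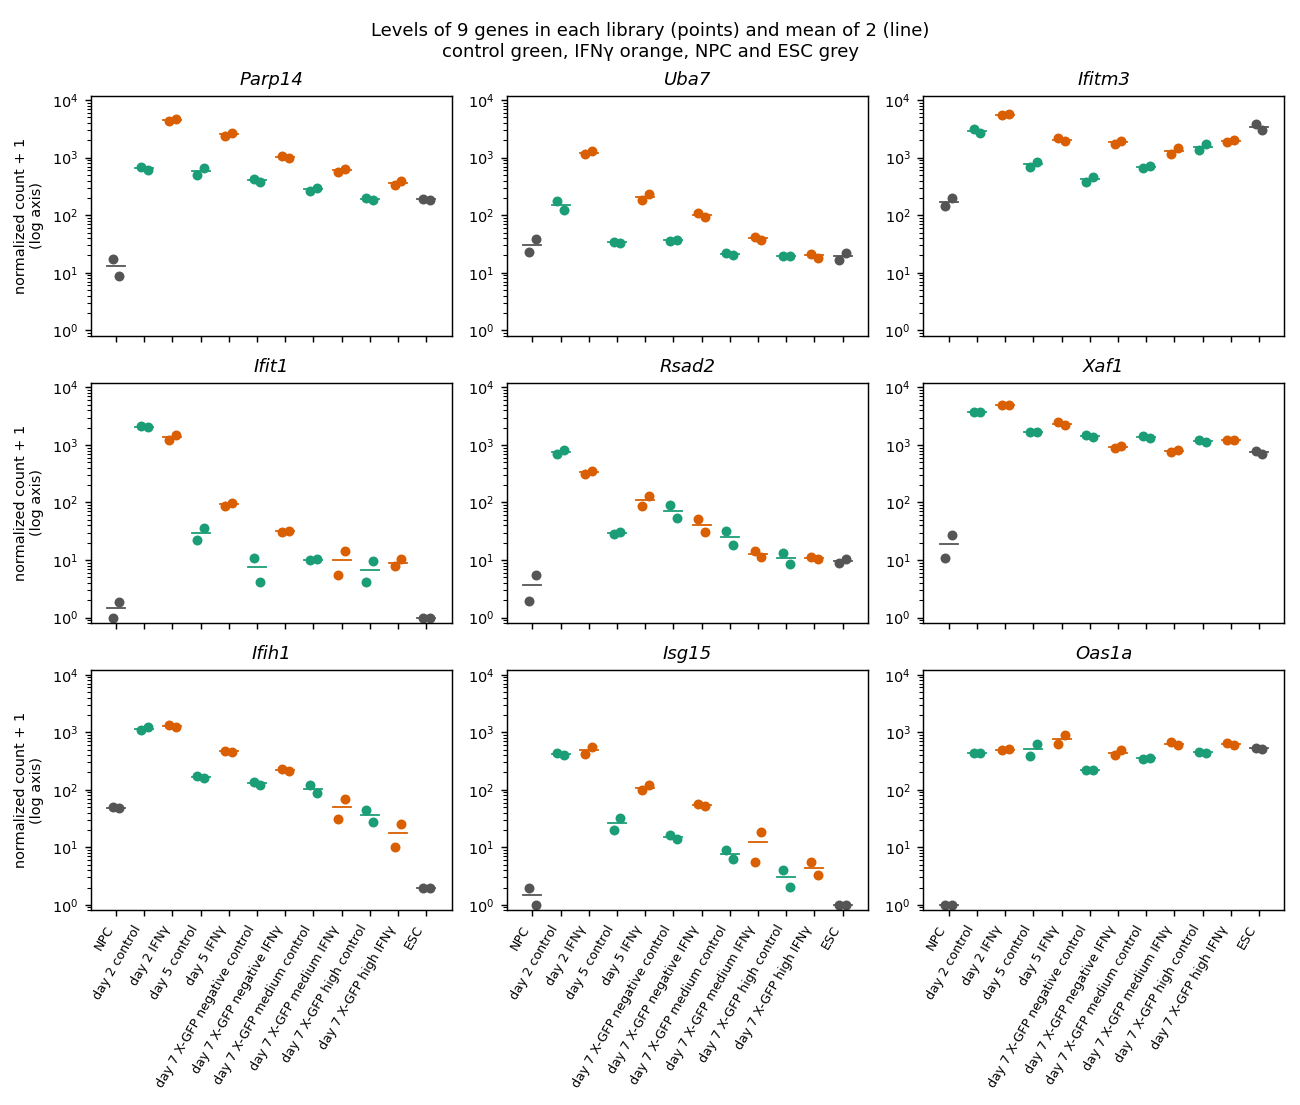
Normalized count + 1 (vertical log axis) of 9 genes in the 12 populations (horizontal axis), with 1 point per library and a line at the mean of 2, control green, IFNγ orange, NPCs and ESCs grey. For Ifit1 and Rsad2 the orange points lie below the green ones at day 2 and above them at day 5, and for Parp14 and Ifitm3 they lie above at every stage.

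The difference between days was tested as an interaction. Larger and smaller here and below refer to signed log2 fold changes, so a negative effect that faded or turned also counts as larger. From day 2 to day 5 the IFNγ effect was larger for 13 of 43 genes tested, against 0.202% of all genes tested, and smaller for 0, against 0.474% of all. The 13 were Ifit1, Ifit3, Oas2, Oasl2, Ifih1, Ddx58, Mx2, Rsad2, Cmpk2, Rtp4, Ifi44, Isg15 and Lgals3bp. Among them, Ifit1 and Rsad2 went from lower to higher, and Oas2 and Mx2 from lower to not past the test. At an unadjusted p under 0.05, 6 were smaller, and 2 were with DESeq2, 0 with edgeR and 1 without replicate 1 of either day 5 arm. Of the 13 calls, 5 held in each fit that left out 1 library, and the count was 8 without control replicate 1 of day 2, 6 without control replicate 2, 5 without IFNγ replicate 1 and 7 without IFNγ replicate 2 of that day. Rsad2 had the largest of these differences (difference of log2 fold changes 3.03 ± 0.30, adjusted p = 0.0036). It was called in every fit that left out a library.

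From day 5 to the negative gate, the IFNγ effect was larger for 4 of 41 genes tested, against 17.8% of all, and smaller for 15, against 22.5% of all. The 4 were Ifitm1, Ifitm2, Ifitm3 and Samd9l. The effect was larger for 2 genes without replicate 1 of the negative-gate controls or replicate 2 of its treated cells, and for 7 without control replicate 1 of day 5. With rescaled libraries 5 were larger and 13 smaller, around a median of 0.13 over all genes, of which 4133 were larger and 2428 smaller (2746 and 3465 before). In the medium against the negative gate it was larger for 1 of 38 (Trim25), against 7.31% of all, and smaller for 13, against 8.36% of all, and without control replicate 2 of the medium gate 9 calls were made in place of 14. With rescaled libraries 21 were called, each of them smaller, around a median of -0.16 over all genes, of which 399 were larger and 2867 smaller (1142 and 1307 before). Xaf1 was lower with IFNγ in the medium gate and not past the test in the high gate. In the high against the medium gate the IFNγ effect was larger for 1 of 37 (Xaf1), against 4.71%, and smaller for 7, against 8.06%. These last calls moved most with single libraries, from 2 in all, without control replicate 1 of the medium gate or control replicate 2 of the high gate, to 14 without IFNγ replicate 2 of the medium gate. The counts were 4 without control replicate 2 of the medium gate or control replicate 1 of the high gate, and 5 without IFNγ replicate 1 of the medium gate or IFNγ replicate 2 of the high gate. In the tests of this paragraph, in order, 4, 2 and 3 genes had a mean of at most 10 in at least 1 group.

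Levels of the treated arm were mostly lower in the negative gate, after withdrawal, than at day 5. A limit is that day 5 cells had not been split by X-GFP. The 44 genes together took 0.130% and 0.137% of treated normalized counts at day 5 and 0.107% and 0.111% in the negative gate. Control cells, never given IFNγ, went from 0.0773% and 0.0864% to 0.0648% and 0.0682%. The control change was not tested gene by gene. Zbp1, Parp14 and Oas3, named below, were among the 15 genes with a smaller IFNγ effect in the negative gate. IFNγ-treated cells of the negative gate were lower than day 5 IFNγ cells for 30 of 42 genes tested, against 24.2% of all genes tested, and higher for 2, against 23.1% of all, with a median log2 fold change of -0.77 against -0.01 over all genes. The 2 that were higher were Ifitm1 (log2 fold change 1.57 ± 0.19, adjusted p = 0.0019) and Ifitm2 (log2 fold change 0.42 ± 0.074, adjusted p = 0.0057). Zbp1 fell from 376 and 418 to 201 and 203 (log2 fold change -0.97 ± 0.13, adjusted p = 0.0025), Parp14 from 2381 and 2733 to 1059 and 1001 (log2 fold change -1.31 ± 0.093, adjusted p = 0.00038) and Oas3 from 210.4 and 302 to 97.7 and 109.9 (log2 fold change -1.27 ± 0.21, adjusted p = 0.0046). These are the same treated libraries that enter the comparisons with control at days 5 and 7. Among day 7 controls, cells of the high gate were lower than those of the negative gate for 18 of 37 genes tested, against 39.3% of all, and higher for 10, against 34.7% of all, with a median of -0.26 against -0.04. All 3 IFITM genes were among the higher, and Parp9, Parp14 and Dtx3l were all among the lower.

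The upstream pathway was counted in 22 genes of interferon receptors, kinases, transcription factors, negative regulators and nucleic acid sensing, of which 21 were tested at days 2 and 5. At day 2, 10 were higher with IFNγ and 1 was lower, against 5.03% and 3.45% of all genes tested, and at day 5, 6 were higher, against 1.65% of all. Of 21 in the negative gate, 7 were higher and 9 lower, against 31.1% and 30.8% of all. In the medium gate 4 and 9 of 21 were, against 33.3% and 29.6%, and in the high gate 1 and 6 of 20, against 18.1% and 20.4%. Irf1, a transcription factor induced by IFNγ, had 424 and 327 normalized counts in control and 7947 and 7484 in treated cells at day 2 (log2 fold change 4.37 ± 0.12, adjusted p = 5.2e-06). Stat2, a subunit of the complex that acts downstream of type I interferon, had 939 and 868 in control and 3059 and 3165 with IFNγ (log2 fold change 1.78 ± 0.067, adjusted p = 2.5e-05). Irf1 was higher with IFNγ in all 5 comparisons and was the gene of the list that was higher in the high gate. Irf9, the DNA-binding partner of STAT2, was higher by less (log2 fold change 0.22 ± 0.057, adjusted p = 0.094). Irf7, which amplifies type I interferon, had 145 and 151 in control and 340.3 and 463 with IFNγ at day 2 (log2 fold change 1.42 ± 0.17, adjusted p = 0.0074) and was lower with IFNγ in the high gate, at 11.4 and 9.25 against 26.8 and 28.8 (log2 fold change -1.35 ± 0.35, adjusted p = 0.012). Usp18, which removes ISG15 and restrains type I interferon signaling, was lower at day 2, at 736 and 905 against 1709.8 and 1925 (log2 fold change -1.15 ± 0.11, adjusted p = 0.0029). Its effect at day 5 was 0.77 ± 0.28 (adjusted p = 0.22), and the difference between the days passed the test (difference of log2 fold changes 1.92 ± 0.27, adjusted p = 0.017). Ifnb1, which encodes interferon β, was listed at 0 in all 24 libraries.

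Fibroblast markers, which do not tell feeders from NPCs, differed in the day 2 comparison. With IFNγ, 4 of the 8 (Col1a1, Col1a2, Postn and Thy1) were lower, against 3.45% of all genes tested, and 0 were higher. The 8 summed to 61408 and 41396 in control and 30729 and 25195 in treated libraries. All 4 Y-linked genes, which mark the male feeders, were tested, and 0 were higher and 0 lower. Their sums of 253 and 218 in control and 125 and 223 with IFNγ overlapped. How much of the lower Ifit1, Oas2, Mx1, Mx2 and Rsad2 at day 2 goes with the fibroblast markers was not tested.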

How the data were processed

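RNA-seq was made by the authors from rRNA-depleted, stranded libraries. Reads were aligned with STAR, with WASP filtering against allelic mapping bias, to mm10 with variant positions masked, counted per gene with HTSeq 0.6.1 and scaled with DESeq2. The deposited values are a signal, counts divided by size factors. The 24 columns were each matched to 1 sample and 0 columns were left unused. The values were whole multiples of 1 step per library, to a tolerance of 0.01 step, and the reads recovered from these steps numbered 24746109 to 37056508 per library. Floors of 3 reads cover counting error only.

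Of the identifiers, 95.0% were found in GENCODE vM21, which gave positions and exon lengths. limma 3.58.1 in R 4.3.3 (eBayes with trend, two-sided, Benjamini-Hochberg) was fitted on log2(normalized count + 1) to genes with a mean above 10 in the libraries compared, with a call at an adjusted p under 0.1, the filter and threshold of the study. Alternatives were a pseudocount of 0.1, no filter, rescaling to 1 total, 1 fit of all 24 libraries, a replicate block, leaving out each library, and DESeq2 1.42.0 and edgeR 4.0.16 on the recovered reads. On data simulated for the day 2 comparison (15697 genes, 200 changed), limma recovered 91% of 4-fold and 78% of 2-fold changes, with 19.1% of calls false. With no gene changed it made 0 calls. A 2 against 2 comparison of a single value cannot go below p = 0.333 in an exact permutation test. Per-library values were chosen by rule: in each role group, the gene with the largest day 2 change, that with the largest change in X-GFP-high cells and that with the highest mean, and every gene called against the direction of most or in all 5 comparisons. The genes, the lists and this rule were chosen with earlier results of these data known. Values of some further genes were chosen after they were seen. A gene of the pathway list is not reported here and was left out of its counts.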

Additional observations from a re-analysis of the deposited data

Results flagged for a closer look

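The effect of IFNγ was compared between populations by the interaction test (limma, adjusted p under 0.1). Between days 2 and 5 it differed for 13 of 43 genes tested, larger in 13 and smaller in 0, against 0.202% and 0.474% of all genes. From day 5 to the X-GFP-negative gate of day 7 it differed for 19 of 41, larger in 4 and smaller in 15, against 17.8% and 22.5%. From the negative to the medium gate it differed for 14 of 38, larger in 1 and smaller in 13, against 7.31% and 8.36%. From the medium to the high gate it differed for 8 of 37, larger in 1 and smaller in 7, against 4.71% and 8.06%. The values below are differences of log2 fold changes, the later or higher X-GFP population minus the other, for every gene called in that test. A positive difference is called larger, also where a negative effect faded or turned.

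From day 2 to day 5 the effect was larger for Rsad2 (3.03), Oas2 (2.42), Ifit1 (2.33), Ifi44 (2.16), Rtp4 (2.11), Oasl2 (2.03), Isg15 (1.87), Ifit3 (1.65), Lgals3bp (1.41), Mx2 (1.34), Ifih1 (1.33), Cmpk2 (1.08) and Ddx58 (0.81). Day 2 and day 5 cells came through different gates.

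From day 5 to the negative gate the effect was larger for Ifitm1 (0.89), Samd9l (0.80), Ifitm3 (0.70) and Ifitm2 (0.39). It was smaller or turned for Rsad2 (-2.65), Oas3 (-1.16), Uba7 (-1.15), Xaf1 (-1.11), Oasl2 (-1.04), Ube2l6 (-1.001), Isg20 (-0.85), Parp14 (-0.81), Parp9 (-0.72), Ifih1 (-0.70), Zbp1 (-0.69), Ddx58 (-0.66), Dtx3l (-0.60), Ifi35 (-0.52) and Bst2 (-0.40).

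From the negative to the medium gate the effect was larger for Trim25 (0.40). It was smaller or turned for Ifit1 (-2.39), Ifih1 (-1.92), Cmpk2 (-1.73), Herc6 (-1.64), Zbp1 (-1.60), Ifit2 (-1.56), Ifitm3 (-1.21), Lgals3bp (-1.15), Ifitm1 (-1.01), Ifi35 (-0.74), Parp9 (-0.56), Dtx3l (-0.55) and Bst2 (-0.48). From the medium to the high gate the difference was positive for Xaf1 (0.86) and negative for Oasl2 (-1.85), Ube2l6 (-0.74), Oas1g (-0.58), Ifitm1 (-0.58), Ifitm3 (-0.56), Pml (-0.48) and Trim25 (-0.29).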

How the results depend on the processing

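Of 377 calls on single genes, no alternative reversed the direction of any, and 4009 of 4352 values under alternatives stayed past the threshold. The replicate numbers are shared between groups, but nothing ties equal numbers to 1 culture. The replicate differences of the 2 arms correlated across genes at 0.31 at day 2, 0.26 at day 5 and 0.12, 0.096 and 0.049 in the negative, medium and high gates. With the replicate block, 33 genes were called at day 2, 36 at day 5 and 34, 27 and 17 in the 3 gates, in place of 27, 25, 34, 26 and 15. The interaction of days 2 and 5 gave 16 in place of 13, and over all genes the block made 2652 higher and 2343 lower calls at day 2 (790 and 542 without it) and 1810 and 1569 at day 5 (249 and 81).

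With all 24 libraries in 1 fit, 15 of the genes were called at day 2, 7 in the interaction of days 2 and 5 and 3 in that of the high and medium gates. Between ESCs and NPCs, 9 were lower with no filter on low values (median log2 fold change 1.42) and 12 with all libraries in 1 fit (1.27), where more genes were tested. With no filter on low values, 7 were called in the high gate and 2 in the interaction of the high and medium gates, and with DESeq2 8 and 5. Leaving out 1 library gave 7 to 16 calls in the high gate, 5 to 15 in the interaction of days 2 and 5, 9 to 19 in that of the medium and negative gates and 2 to 14 in that of the high and medium gates. A group left with 1 library was assumed to vary like the others. Over all genes, day 5 gave 556 higher and 356 lower calls with DESeq2, 1422 and 1078 with all libraries in 1 fit and 134 and 7 with no filter, and day 2 gave 481 and 212 with no filter. Rescaling to 1 total put the median of all genes at -0.16 between ESCs and NPCs (23 of the genes higher, 7 lower), at -0.13 between the controls of days 5 and 2 (5 and 36) and at 0.07 between high-gate and negative-gate controls (12 and 16). Between the treated cells of the negative gate and day 5 it gave 2 and 29, and over all genes 4263 and 2912 in place of 3571 and 3745. With edgeR the interaction of the high and medium gates had 2 larger and 5 smaller, over all genes 898 and 991 in place of 736 and 1259. Other letters for the motifs, chosen with the first, found the GAS-like one in 2 and the ISRE-like one in 23 of 35 genes, against 1.35% and 12.1% of all genes. The cause of these shifts was not tested. With 2 libraries a group, the simulated data had 78% of 2-fold changes recovered at day 2, so a gene that missed the threshold is not shown to be alike in both arms.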
